A study of Mus musculus with 48 samples.

Results

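The cytosolic ribosomal protein genes are the genes that encode the proteins of the large and small subunits of the cytosolic ribosome. Members were chosen by name and annotation, without use of measured values: every protein-coding mouse gene whose symbol starts with Rpl or Rps followed by a digit, plus *Rplp0*, *Rplp1*, *Rplp2* and *Rpsa*, leaving out the *Rps6k* kinases, *Rps19bp1*, *Rpl7l1* and pseudogenes. The rule gave 84 of the 55335 genes of the tables. Of these, 51 encode large-subunit and 33 small-subunit proteins. The 84 include 7 paralogs of other members, namely *Rpl3l*, *Rpl10l*, *Rpl22l1*, *Rpl36al*, *Rpl39l*, *Rps27l* and *Rps27rt*.

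RNA-seq and Ribo-seq, which sequences the mRNA pieces that ribosomes protect from nuclease, were performed in mouse embryonic stem cells (mESCs), with 2 libraries per group. The study asked what the nuclear proteins NRDE2, MTREX and CCDC174 do to transcripts, and the comparisons below give the ribosomal protein genes in each of these states. All lines were hybrid 129-C57BL/6 mESCs grown with serum, LIF and 2i, and according to the methods they carried a 4-hydroxytamoxifen (4OHT)-inducible Cre recombinase. They were edited lines, so a genotype may stand for few clones.

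*Nrde2*-KO cells carried floxed *Nrde2* and received 100 nM 4OHT for 4 d. Their WT controls were cells of the conditional line without 4OHT. *Mtrex*-KO cells received 4OHT for 3 d, with untreated controls of their own. 4OHT was thus given to the KO groups and not to their controls, and its own effect cannot be told apart from that of the deletion. *Nrde2-d200* cells made NRDE2 without its 200 N-terminal amino acids, and *Nrde2-D174R* cells made NRDE2 with a point mutation. Both mutants, like the first *Nrde2*-KO, were compared with the same pair of WT libraries. *Ccdc174-dTAG* cells received 500 nM dTAG-13 for 24 h, which degrades the tagged CCDC174 protein, and their WT carried the same FKBP12F36V fusion without dTAG-13. A second *Nrde2*-KO experiment and the *Ccdc174-dTAG* experiment were also sequenced after 4 h in 0.1 mg/ml cycloheximide (CHX), which stops translation. Ribo-seq was performed in *Nrde2*-KO and WT. The labels number the replicates but do not say that they were separate cultures, so p-values measure the spread between these libraries, which may be technical.

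RNA-seq libraries held 28683644 to 36272309 reads in genes and Ribo-seq libraries 3475051 to 5035940. *Nrde2* RNA was lower in the first *Nrde2*-KO (18.9 against 39.5 CPM, log2 fold change −1.05) and the second (18.9 against 50.8, −1.41), and *Mtrex* RNA was lower in *Mtrex*-KO (41.7 against 111, −1.41). With CHX, the *Nrde2* value did not separate the libraries labelled *Nrde2*-KO from WT (279 against 262 CPM, limma adjusted p = 0.229). In the fit with and without CHX, *Nrde2* RNA itself rose with CHX. It went from 54.8 to 242 CPM in WT (log2 fold change 2.13) and from 20.7 to 259 in *Nrde2*-KO (3.63). Its level with CHX therefore cannot check the genotype. *Ccdc174* RNA checks nothing, because the protein is the target. All 8 mESC markers were detected in every RNA-seq library, their sum was 2039 to 4881 CPM, and a list of feeder-cell markers summed to 1.90 to 5.33 CPM. The *Mtrex*-KO libraries stood apart, with 2039 and 3320 CPM of mESC markers against 4314 and 4881 in their WT, and with 16.6 and 8.89% of gene reads in the single gene *Gm26917*, which took no more than 3.31% elsewhere.

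Ribosomal protein genes are among the most strongly expressed genes of dividing cells, and their products are needed in equal numbers. Most of their mRNAs begin with a run of pyrimidines, the TOP motif, through which mTOR signalling sets how well they are translated. Many carry small nucleolar RNAs (snoRNAs) in their introns, several make alternative transcripts that are removed by nonsense-mediated decay (NMD), which needs translation, and nearly all have processed pseudogenes elsewhere in the genome.

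These features shaped what the tables can hold. The annotation places a snoRNA gene inside 30 members, lists an NMD transcript for 19 and at least 1 retained-intron transcript for 63, and names 291 ribosomal protein pseudogenes. A median of 1736.5 bases per member was counted as exon, against a median of 756 in the main transcript, because alternative transcripts extend exons into introns. In 14 members at least 90% of the gene span was counted. *Rpl9* (chr5:65388364-65391444, minus strand, ENSMUSG00000047215) was counted over all 3081 of its 3081 bases, *Rpl22l1* (chr3:28805436-28807424, plus strand, ENSMUSG00000039221) over 1989 of 1989, and *Rpl10a* (chr17:28328471-28331033, plus strand, ENSMUSG00000037805) over 2431 of 2563, so reads of their introns enter their values. Coordinates are of GRCm38.

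Only uniquely mapping reads had been counted. Of the 50-base windows of a member's main transcript, a median of 39.6% occurred once in the genome, and of the 30-base windows of the coding sequence a median of 3.55%. For 33 members no 30-base coding window was unique. The same medians were 99.9 and 100% for mitochondrial ribosomal protein genes and 90.6 and 73.2% for translation factor genes. Counts of most members, Ribo-seq counts in particular, therefore come from small parts of their sequence, and their absolute levels are uncertain.

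The 5′ ends are shown because the Ribo-seq results below are described by them. RefSeq start sites on GRCm38.p6 were available for 64 of the 84 members. Each line gives 30 bases, 5′ to 3′ on the gene's strand, from 10 bases before the start site, and capitals mark the longest run of C and T that reaches within 5 bases of the start. *Rplp2*, *Rps26*, *Rps21* and *Rpl12* rose in Ribo-seq of *Nrde2*-KO, *Rpl35a* and *Rpl14* rose relative to RNA, and all of them carry a run of 6 bases or more. The Ribo-seq calls of *Rps26* and *Rpl12* were lost under some other ways of processing, as given below. *Rps13* and *Rplp0* fell in both measures, *Rps4x* and *Rps15* in Ribo-seq and *Rps12* relative to RNA, and they carry shorter runs within 5 bases of the start. Longer runs of C and T further downstream, as in the printed lines of *Rps12*, *Rplp0* and *Rps13*, were not counted. Members of the opposite kind exist too: *Rps16*, with a run of 2, rose in Ribo-seq, and *Rpl4*, with a run of 14 that starts before the window shown here and is therefore not printed, fell. *Rpl9*, *Rpl10a* and *Rpl22l1* changed in several of the RNA-seq comparisons.
Rplp2 (chr7:141447641-141447670, plus strand): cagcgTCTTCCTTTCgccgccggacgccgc
Rps26 (chr10:128626487-128626516, minus strand): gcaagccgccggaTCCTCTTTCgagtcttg
Rps21 (chr2:180257369-180257398, plus strand): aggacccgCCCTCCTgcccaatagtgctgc
Rpl12 (chr2:32961702-32961731, plus strand): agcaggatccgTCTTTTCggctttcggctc
Rpl35a (chr16:33056472-33056501, plus strand): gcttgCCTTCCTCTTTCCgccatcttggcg
Rpl14 (chr9:120571507-120571536, plus strand): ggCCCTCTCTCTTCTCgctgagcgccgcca
Rps16 (chr7:28350679-28350708, plus strand): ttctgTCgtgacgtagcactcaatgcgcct
Rps13 (chr7:116334171-116334200, minus strand): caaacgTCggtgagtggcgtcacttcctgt
Rps4x (chrX:102189372-102189401, minus strand): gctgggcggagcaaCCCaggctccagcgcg
Rps15 (chr10:80292421-80292450, plus strand): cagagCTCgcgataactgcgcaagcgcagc
Rplp0 (chr5:115559457-115559486, plus strand): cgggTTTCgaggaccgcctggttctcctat
Rps12 (chr10:23787190-23787219, minus strand): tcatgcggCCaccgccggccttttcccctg
Rpl9 (chr5:65391412-65391441, minus strand): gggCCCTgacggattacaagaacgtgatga
Rpl10a (chr17:28328461-28328490, plus strand): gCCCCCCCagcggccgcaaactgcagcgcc
Rpl22l1 (chr3:28805498-28805527, plus strand): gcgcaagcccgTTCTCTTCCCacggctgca

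In the 8 WT libraries without CHX, levels per length spanned more than 3 orders of magnitude across members, with a median of 37.7 CPM per kb of counted exon. *Rpl8*, a protein beside the peptidyl transferase centre, had the highest mean level, 1345 CPM per kb (range 1173 to 1611). It was followed by *Rpl4*, which lines the exit tunnel, at 1286 (1189 to 1439), and the stalk protein *Rplp1* at 1283 (1133 to 1541). The ranges of these 3 overlap. At the other end stood *Rps27rt* at 0.448 (0.142 to 1.02), *Rpl24* at 0.904 (0.716 to 1.26) and *Rpl29* at 1.57 (0.755 to 2.27). The median was 396 CPM per kb for the 7 members with at least 80% unique windows of 50 bases, and 9.37 for the 26 members with under 20%. Spearman's correlation of level per kb with the percent of unique windows was 0.507 over the 84 members. The part of countable sequence in the order of levels was not tested.

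**Figure D1:**
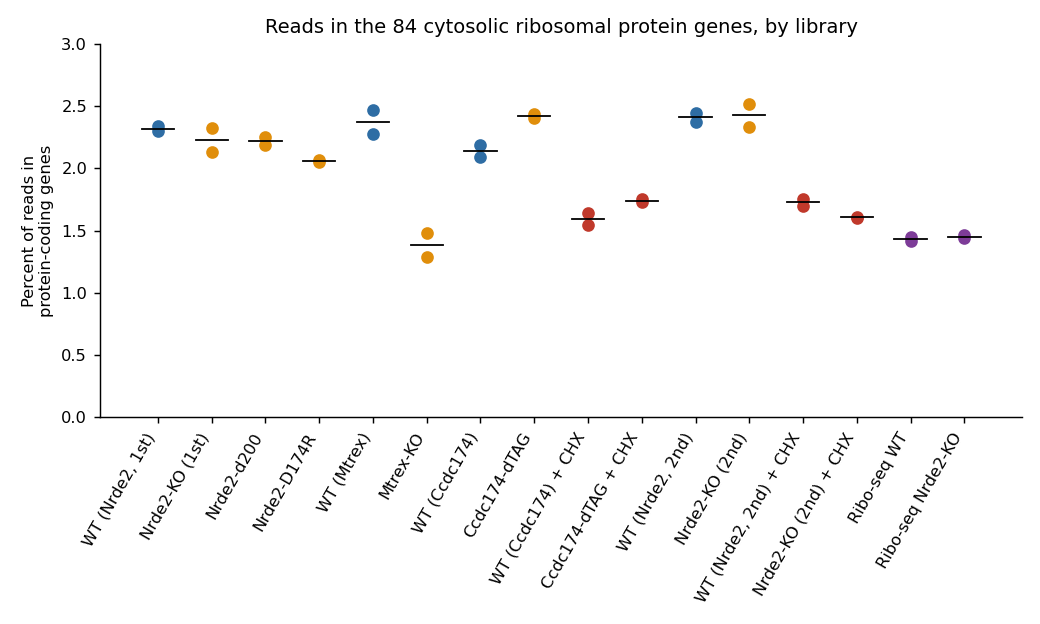
Percent of reads in protein-coding genes that fell in the 84 members, for each library; each point is 1 library. WT libraries without CHX sit between 2.09 and 2.47%, the CHX libraries between 1.55 and 1.75% and the *Mtrex*-KO libraries at 1.29 and 1.48%.

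Members took 2.09 to 2.47% of the reads in coding genes in WT without CHX. The share was 2.13 and 2.32% in the first *Nrde2*-KO, 2.52 and 2.33% in the second, 2.25 and 2.19% in *Nrde2-d200*, 2.07 and 2.05% in *Nrde2-D174R*, and 2.44 and 2.40% in *Ccdc174-dTAG*. Against their own WT pairs, the first *Nrde2*-KO (WT 2.34 and 2.30%) and the second (WT 2.45 and 2.38%) overlapped WT, *Nrde2-d200* and *Nrde2-D174R* lay below the first WT pair, and *Ccdc174-dTAG* lay above its WT of 2.09 and 2.19%. The share was 1.29 and 1.48% in *Mtrex*-KO, against 2.28 and 2.47% in its own WT, and 1.55 to 1.75% in the 8 CHX libraries. In bulk samples, fewer cells with high levels and less RNA per cell cannot be told apart.

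CHX lowered nearly all ribosomal protein RNAs within 4 h, in each of the 4 genotypes in which it was given. Values are CPM scaled between libraries by median-of-ratios factors, fold changes are on the scale of log2(CPM + 0.25), and p-values are limma's, Benjamini-Hochberg adjusted over all genes tested, with 0.05 as the threshold. *Rps27rt* lay below the filter on low levels in every RNA-seq comparison, which left 83 members. In *Nrde2* WT, 79 of 83 fell and 1 rose, where 29.5% of all 15133 genes fell and 30.4% rose. In *Nrde2*-KO 78 fell and 1 rose (all genes 30.8 and 31%), in *Ccdc174* WT 75 and 1 (31.1 and 30.6%), and in *Ccdc174-dTAG* 77 and 1 (30.8 and 31.6%). The median log2 fold changes of the members were −0.71, −0.83, −0.71 and −0.78. Falls of more than 1 on the log2 scale with adjusted p below 0.01 numbered 15, 23, 15 and 17, against 2.97, 3.51, 2.7 and 2.86% of all genes.

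The fall covered both subunits: in *Nrde2* WT all 32 small-subunit members tested fell and 47 of 51 large-subunit members. *Rpl10* (chrX:74270812-74273135, plus strand), whose protein is the last to join the large subunit, had 3.93 and 3.89 CPM with CHX against 17.6 and 15.6 without, in *Nrde2* WT (log2 fold change −2.02, SE 0.15, adjusted p = 3.35e-08). It fell in the other genotypes too, to 4.903 and 4.997 from 16.2 and 20.1 in *Nrde2*-KO, to 4.50 and 4.27 from 17.5 and 19.1 in *Ccdc174* WT, and to 7.90 and 6.72 from 18.9 and 25.1 in *Ccdc174-dTAG*. All CHX libraries lay below all untreated ones for this gene.

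*Rps29*, a zinc-binding small-subunit protein, had 0.124 and 0.324 CPM against 1.37 and 1.84 in *Nrde2* WT (−1.99), a fall that rests on few reads. *Rps27a*, made as a fusion with ubiquitin, had 4.45 and 4.82 against 15.6 and 16.5 (−1.74). Each was lower in both CHX libraries than in either untreated one, as were 39.8% of all genes. The largest rises and falls of each comparison were picked among genes separated in this way, so the separation adds no support to them. *Rpl11*, which with *Rpl5* can bind MDM2, had 2.61 and 3.04 against 8.24 and 8.21 (−1.47), and *Rps13* was among the strongest falls in *Nrde2*-KO, with 4.75 and 4.74 against 13.9 and 17.8 (−1.68). The abundant *Rpl8* fell less, with 1555 and 1579 against 2283 and 2359 (−0.57). In all 4 genotypes, 9 members fell by more than 1 on the log2 scale, among them *Rpl10*, *Rpl11*, *Rpl23a*, *Rpl36a*, *Rps13*, *Rps27a* and *Rps29*. The share of all genes was not computed for this count. The same holds for the counts below of members that fell or rose in all 4 genotypes.

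*Rpl3* (chr15:80077791-80091868, minus strand), a large-subunit protein near the peptidyl transferase centre whose own transcripts are known to be spliced into NMD targets, was the 1 member that rose in all 4 genotypes. It had 91.5 and 100.3 CPM with CHX against 57.2 and 61.9 without in *Nrde2* WT (0.68, SE 0.10, adjusted p = 2.62e-05). In *Nrde2*-KO it had 96.0 and 98.9 against 68.8 and 66.1 (0.53, adjusted p = 0.000253). In *Ccdc174* WT it had 91.5 and 78.4 against 60.3 and 69.0 (0.39, adjusted p = 0.00269), and in *Ccdc174-dTAG* 122 and 106 against 66.80 and 75.01 (0.68, adjusted p = 2.37e-05). The groups did not overlap in any genotype. Of all genes, 39.8, 40.5, 40 and 40.5% were higher without overlap in the same order of genotypes. The 75 members that fell in all 4 leave out, besides *Rpl3*, the genes *Rpl10a*, *Rpl10l*, *Rpl27*, *Rpl36*, *Rpl3l*, *Rplp1* and *Rps2*. *Rpl10a*, the protein of the L1 stalk, had 42.5 and 43.2 CPM with CHX and 42.2 and 46.8 without in *Nrde2* WT (−0.05, adjusted p = 0.715).

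Other genes of similar level moved less. The 7809 other protein-coding genes used here lay within the interquartile range of the members' mean CPM, 11.5 to 228. Members outside that range were thus not matched. Median changes of these genes with CHX in *Nrde2* WT, *Nrde2*-KO, *Ccdc174* WT and *Ccdc174-dTAG* were −0.08, −0.08, −0.13 and −0.12. Among genes with coding sequences of at most 600 bases, the others had medians of −0.19, −0.28, −0.24 and −0.31 and the members −0.75, −0.86, −0.76 and −0.79. Of 30 translation factor genes, 28 fell and 1 rose in each genotype, with a median of −0.51 in *Nrde2* WT. Mitochondrial ribosomal protein genes had 53 of 77 lower (median −0.31) and ribosome biogenesis genes 29 of 43 lower and 2 higher (−0.31) in *Nrde2* WT. Without scaling between libraries the median of all genes rose by 0.202, 0.201, 0.211 and 0.239, so the falls given here are relative to the typical gene, and the counts of lower members then were 73, 70, 69 and 66. The mESC marker sum was 3177 to 3835 CPM with CHX and 3805 to 4492 without in the same experiments, and its part in these falls was not tested.

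**Figure D2:**
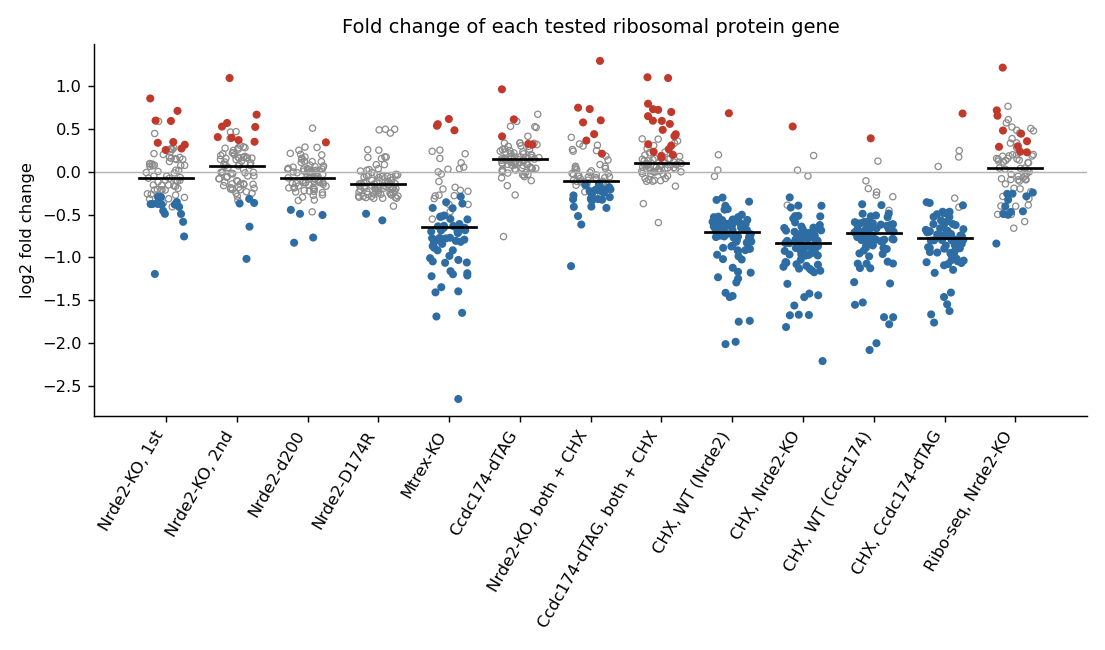
Log2 fold change of each member in each RNA-seq and Ribo-seq comparison; each point is 1 gene and the bar is the median. The CHX comparisons have medians of −0.71 to −0.83 and *Mtrex*-KO −0.65, while the *Nrde2* and *Ccdc174* comparisons lie around 0.

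Loss of *Mtrex*, the helicase that feeds nuclear RNA to the exosome, was the genotype with the largest change. In *Mtrex*-KO 56 of 83 members fell and 4 rose, where 34.1% of all 14889 genes fell and 32.5% rose, and the median of the members was −0.65. A fall of more than 1 on the log2 scale with adjusted p below 0.01 was seen for 16 (all genes 11.3%). As deposited, without scaling, the median of all genes fell by 0.381, and 71 members were lower and 0 higher.

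Of the stalk proteins, which recruit elongation factors, *Rplp1* had 276 and 264 CPM in *Mtrex*-KO against 586 and 678 in WT (−1.22, adjusted p = 5.5e-07). *Rplp0* had 443 and 530 against 983 and 971 (−1.01). In the large subunit, *Rpl8* had 727 and 914 against 1595 and 1783 (−1.05), *Rpl13a* 49.95 and 69.54 against 146 and 166 (−1.40) and *Rpl4* 1344 and 1690 against 2528 and 2701 (−0.79). In the small subunit, *Rps9*, at the mRNA entry, had 157 and 171 against 418 and 455 (−1.41, adjusted p = 1.72e-09), and *Rps3* 802 and 1093 against 1688 and 1857 (−0.92). In each of these genes both *Mtrex*-KO libraries lay below both WT libraries, as they did for 40.2% of all genes.

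The 4 members that rose were *Rpsa*, also known as the laminin receptor (74.9 and 78.5 against 51.0 and 48.9 CPM, 0.62, SE 0.08, adjusted p = 1.71e-06), *Rpl5* (56.1 and 66.5 against 39.2 and 43.8, 0.56), *Rps12* (41.7 and 39.3 against 26.7 and 28.9, 0.54) and *Rpl30* (89.7 and 88.1 against 62.2 and 64.6, 0.49, adjusted p = 0.00116). All 4 host snoRNAs. Among the 30 snoRNA hosts 4 rose and 18 fell, with a median of −0.63, and among the 53 other members 0 rose and 38 fell, with a median of −0.65. As deposited, all 4 lost their call, with 0.24 for *Rpsa*, 0.18 for *Rpl5*, 0.16 for *Rps12* and 0.11 for *Rpl30*. *Rpl10* did not pass it in *Mtrex*-KO (16.7 and 12.9 against 16.3 and 13.2, 0.00, adjusted p = 0.996), although it had the largest fall with CHX in *Nrde2* WT.

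All 7 members with at least 80% unique windows fell in *Mtrex*-KO (median −1.05), and of the 25 tested with under 20%, 13 fell (median −0.36). Among 7060 other protein-coding genes within the interquartile range of the members' mean CPM (14.5 to 238), 39.2% fell, with a median of −0.09. Of the translation factors 22 of 30 fell and 4 rose (median −0.44), of the mitochondrial ribosomal protein genes 46 fell and 2 rose (−0.36), and of the ribosome biogenesis genes 26 fell and 6 rose (−0.35). The libraries of *Mtrex*-KO also had the lower marker sums and the high share of *Gm26917* given above, and only 72.1 and 82.7% of the total behind their CPM lay in genes, against 86.4 and 89.3% in WT. The part of these differences in the fall was not tested.

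Loss of *Nrde2* moved single members in both directions. In the first *Nrde2*-KO, 9 of 83 members rose and 16 fell (all genes 13.3 and 17.2%), with a median of −0.07. In the second, 9 rose and 5 fell (all genes 13.5 and 17.2%), with a median of 0.07. The counts were 9 higher and 2 lower in the first and 7 and 2 in the second without scaling between libraries. They also depended on single libraries: without *Nrde2*-KO replicate 1, 7 members of the first comparison passed the threshold, and without WT replicate 1, 4 of the second did. In the 2 experiments together, 6 members rose in both (*Rpl5*, *Rpl9*, *Rpl10a*, *Rpl27a*, *Rps27* and *Rps29*), 4 fell in both (*Rpl3l*, *Rpl4*, *Rpl8* and *Rps9*) and 0 passed in opposite directions. The share of all genes passing in both experiments was not computed, so these counts cannot be set against it. The 2 experiments share no libraries.

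*Rpl9*, a large-subunit protein, showed the largest rise. It had 55.4 and 51.6 CPM in *Nrde2*-KO against 31.6 and 27.4 in the first experiment (0.86, SE 0.11, adjusted p = 1.32e-05). In the second it had 59.4 and 59.6 against 28.39 and 27.02 (1.10, adjusted p = 7.74e-07). *Rpl10a* had 40.3 and 38.3 against 24.2 and 27.7 in the first (0.60, adjusted p = 0.000691) and 62.7 and 56.1 against 39.0 and 43.4 in the second (0.52, adjusted p = 0.00189). For both genes every KO library lay above both of its WT libraries. Of all genes, 34.3% in the first experiment and 32.5% in the second did so. *Rpl9* and *Rpl10a* were counted over all or nearly all of their span. Whether the added reads lay in exons or introns was not tested, since 1 value per gene is given.

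*Rpl5* had 44.5 and 51.2 against 35.04 and 40.04 CPM in the first experiment (0.35, adjusted p = 0.0345) and 46.7 and 55.8 against 31.9 and 36.8 in the second (0.57, adjusted p = 0.00153). *Rps29* had 1.74 and 1.26 against 0.820 and 0.796 in the first (0.71, adjusted p = 0.0107) and 2.33 and 2.65 against 1.26 and 1.71 in the second (0.67, adjusted p = 0.0156). *Rps29* rests on low counts in both. *Rpl3* had 55.6 and 55.3 against 47.2 and 44.6 in the first (0.27, adjusted p = 0.0327), a call that was lost when any 1 of these libraries was left out.

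Of the members that fell, the abundant *Rpl8* had 1118 and 1276 against 1690 and 1672 CPM in the first experiment (−0.49, adjusted p = 0.00294) and 1766 and 1564 against 2110 and 2189 in the second (−0.37, adjusted p = 0.0182). *Rpl4* had 1857 and 1967 against 2625 and 2460 in the first (−0.41, adjusted p = 0.00887) and 2254 and 2171 against 2888 and 2628 in the second (−0.32, adjusted p = 0.0367). *Rps9* had 323 and 377 against 414 and 442 in the first (−0.29, adjusted p = 0.0345) and 406 and 375 against 526 and 481 in the second (−0.36, adjusted p = 0.0107). All KO libraries of these genes lay below all WT libraries of their experiment, as for 37.2% of all genes in the first and 33.8% in the second. *Rpl41* had 153 and 103 against 212 and 181 in the second (−0.64, adjusted p = 0.00474), and 86.2 and 103 against 124 and 127 in the first, where it did not pass the threshold (−0.41, adjusted p = 0.0559). Translation factor genes had 1 higher and 15 lower in the first experiment (median −0.29) and 1 and 7 in the second.

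The NRDE2 mutants moved fewer members. In *Nrde2-d200* 1 member rose and 5 fell (all genes 7.36 and 8.79%), with a median of −0.07, and 0 and 2 without scaling. *Rpl9* had 39.7 and 35.2 CPM (0.34, adjusted p = 0.0348). *Rpl31* fell, with 38.6 and 35.8 against 52.8 and 53.0 (−0.51, adjusted p = 0.00728), as did *Rpl7*, with 521 and 460 against 674 and 659 (−0.45, adjusted p = 0.0236). In *Nrde2-D174R* 0 rose and 2 fell (all genes 0.987 and 0.651%), with a median of −0.14. They were *Rpl32*, with 356 and 386 against 516 and 525 (−0.49, adjusted p = 0.0161), and *Rpl22l1*. Neither passed without scaling, without the filter on low levels, or with any 1 of these 4 libraries left out. *Rpl9* had 27.5 and 26.1 in this mutant (−0.13, adjusted p = 0.542). Since the first *Nrde2*-KO and both mutants share 1 pair of WT libraries, a deviation of that pair would enter all 3 comparisons.

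Depletion of CCDC174 raised few members. In *Ccdc174-dTAG* 5 of 83 rose and 0 fell (all genes 3.87 and 7.83%), with a median of 0.15. *Rpl9* had 56.7 and 67.3 CPM against 30.8 and 32.3 (0.96, SE 0.11, adjusted p = 7.53e-06) and *Rpl10a* 59.4 and 52.1 against 35.7 and 36.8 (0.61, adjusted p = 0.00139). The remaining members were *Rps18* (151.5 and 173.8 against 118 and 125, 0.41), *Rplp2* (210 and 168 against 147 and 153, 0.33) and *Rpl12*, of the stalk base (62.0 and 65.1 against 50.2 and 51.7, 0.32, adjusted p = 0.0198). All dTAG libraries lay above both WT libraries for these genes, as they did for 27.9% of all genes. Without WT replicate 1, and also without scaling, *Rpl9* and *Rpl10a* passed and *Rps18*, *Rplp2* and *Rpl12* did not. *Rpl12* also lost its call without WT replicate 2 and without dTAG replicate 2, *Rplp2* without WT replicate 2 and without dTAG replicate 1, and *Rps18* without dTAG replicate 2.

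**Figure D3:**
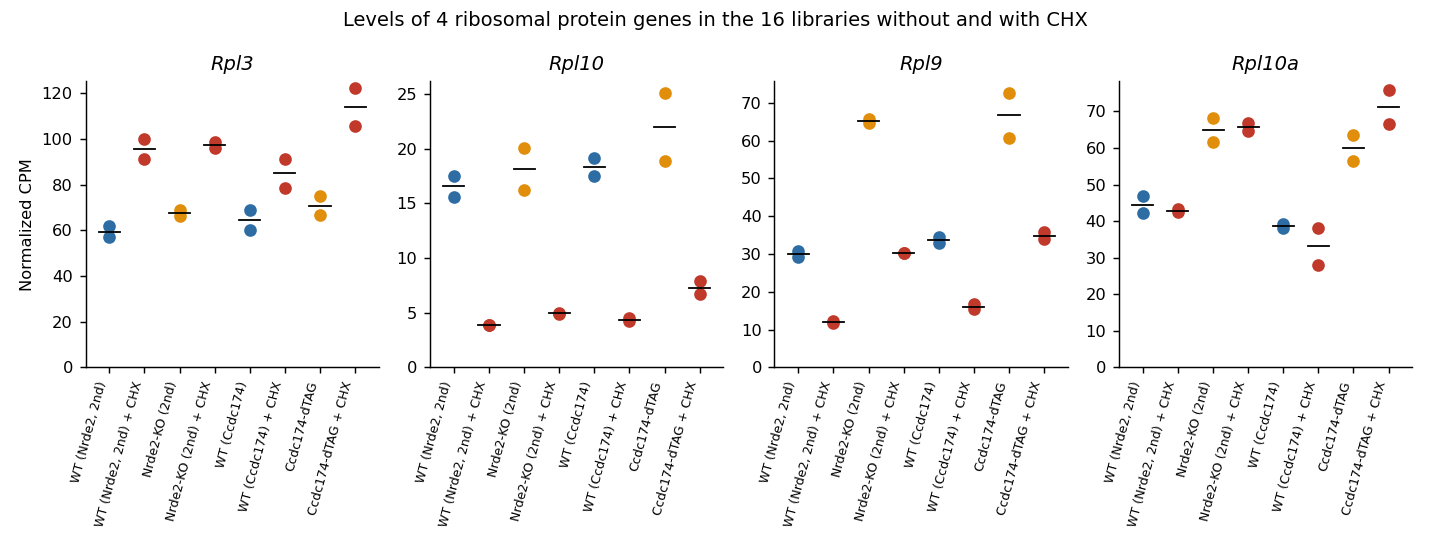
CPM divided by the library's median-of-ratios factor, for *Rpl3*, *Rpl10*, *Rpl9* and *Rpl10a* in the RNA-seq groups; points are libraries and bars are group means. CHX lowered *Rpl10* and raised *Rpl3*, *Rpl9* is higher in *Nrde2*-KO and *Ccdc174-dTAG* than in WT with and without CHX, and *Rpl10a* did not pass the test with CHX in any genotype.

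CHX blocks translation-dependent decay, so *Nrde2*-KO and *Ccdc174-dTAG* were also compared with WT under CHX on both sides. In this fit 81 members passed the filter, *Rpl24* and *Rps29* being below it as well. In *Nrde2*-KO 9 rose and 28 fell (all genes 18.1 and 24.6%, of 15476), with a median of −0.11, and 13 and 23 without scaling. In *Ccdc174-dTAG* 20 rose and 0 fell (all genes 9.12 and 12%), with a median of 0.10. This count was 6 without the dTAG replicate 1 library.

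*Rpl9* rose in both, with 32.6 and 32.4 CPM against 12.8 and 13.3 in *Nrde2*-KO (1.30, SE 0.07, adjusted p = 1.05e-06) and 38.7 and 36.9 against 16.9 and 18.3 in *Ccdc174-dTAG* (1.10, adjusted p = 9.85e-06). *Rpl10a* had 71.9 and 69.5 against 46.1 and 46.9 in *Nrde2*-KO (0.60, adjusted p = 0.00169) and 82.3 and 72.4 against 41.5 and 30.8 in *Ccdc174-dTAG* (1.11, SE 0.11, adjusted p = 0.00014). *Rpl10*, which CHX lowered, was higher in *Ccdc174-dTAG* (8.57 and 7.30 against 4.89 and 4.67, 0.70, adjusted p = 0.00439). *Rpl28* had 10.6 and 10.1 against 6.26 and 6.08 there (adjusted p = 0.00195). In *Nrde2*-KO *Rpl36* rose, with 4.54 and 4.65 against 2.35 and 2.95 (0.75, adjusted p = 0.0114), and *Rpl31* fell, with 22.4 and 21.7 against 31.6 and 31.6 (−0.52, adjusted p = 0.000228). *Rpl3* had a change of 0.01 in *Nrde2*-KO (adjusted p = 0.928) and of 0.42 in *Ccdc174-dTAG* (adjusted p = 0.00603), and the second was lost without dTAG replicate 1.

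Of the 19 members with an annotated NMD transcript, 11 rose in *Ccdc174-dTAG* with CHX and 0 fell (median 0.23), and of the 62 others 9 rose and 0 fell (median 0.08). Among other protein-coding genes the shares higher were 10.9% of 3736 with and 9.21% of 9845 without such a transcript. Without dTAG replicate 1 the counts were 5 of 19 and 1 of 62, and without a filter on low levels 5 of 19 and 4 of 65. In *Nrde2*-KO with CHX, 4 of the 19 rose and 5 fell (median −0.07), and 5 of the 62 rose and 23 fell (median −0.12). The 6 members listed for known NMD isoforms were *Rpl3*, *Rpl10a*, *Rpl12*, *Rpl30*, *Rps3* and *Rps9*. Among them *Rpl10a* rose in both comparisons with CHX, and *Rpl3* rose in *Ccdc174-dTAG* and did not pass in *Nrde2*-KO. The others are not described here. The change of effect with CHX was tested as an interaction in 16 libraries, and 0 of 83 members passed for *Nrde2*-KO (all genes 1.1% higher and 0.615% lower) and 0 for *Ccdc174-dTAG* (0.476 and 0.106%). At an unadjusted p below 0.05 there were 11 and 4 members, and DESeq2 called 2 for *Nrde2*-KO.

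The paralogs *Rpl22l1*, *Rpl3l* and *Rpl39l* had the 3 largest falls in *Mtrex*-KO. *Rpl22l1*, the paralog of *Rpl22*, fell in *Mtrex*-KO from 59.5 and 62.7 to 8.29 and 10.8 CPM (−2.66, SE 0.13, adjusted p = 2.19e-11), while *Rpl22* fell from 306 and 326 to 186 and 223 (−0.63, adjusted p = 1e-05). *Rpl22l1* also fell in the first *Nrde2*-KO, with 42.9 and 47.5 against 75.1 and 77.9 (−0.76, SE 0.13, adjusted p = 0.000294), in *Nrde2-d200* with 48.5 and 38.1 (−0.83, adjusted p = 0.000366) and in *Nrde2-D174R* with 52.9 and 50.2 (−0.57, adjusted p = 0.0334), the last a call that was lost with any 1 library left out. These 3 share that WT pair. In the second experiment it had 46.0 and 56.8 in *Nrde2*-KO against 55.0 and 54.9 in WT (−0.10, adjusted p = 0.58), and in *Ccdc174-dTAG* its change was 0.30 (adjusted p = 0.155). WT libraries of the first experiment were thus higher than those of the second for this gene.

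*Rpl3l*, known from striated muscle, had low levels in mESCs. It fell from 3.55 and 2.59 to 1.35 and 1.03 CPM in the first *Nrde2*-KO (−1.20, SE 0.24, adjusted p = 0.00131), from 2.92 and 2.72 to 1.02 and 1.56 in the second (−1.02, adjusted p = 0.00423), and from 2.16 and 2.79 to 0.492 and 0.697 in *Mtrex*-KO (−1.69, adjusted p = 8.95e-06). With CHX it had 1.52 and 1.34 against 3.56 and 3.17 in *Nrde2*-KO (−1.10, adjusted p = 0.00134). The change in *Ccdc174-dTAG* did not pass the threshold (−0.76, adjusted p = 0.0522). *Rpl39l*, best known from testis, fell in *Mtrex*-KO from 40.1 and 37.1 to 13.5 and 10.9 (−1.65, adjusted p = 6.72e-09). *Rpl36al* had 9.09 and 10.2 against 13.9 and 15.4 in the first *Nrde2*-KO (−0.58, adjusted p = 0.0163). The testis retrogene *Rpl10l* had 0.20 with CHX in *Nrde2* WT (adjusted p = 0.136).

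Ribo-seq was set against RNA-seq of the first experiment in *Nrde2* WT. *Rpl3l* and *Rpl24* lay below the filter in addition to *Rps27rt*, which left 81 members of 12788 genes. Relative to RNA, 52 members were lower and 16 higher in Ribo-seq (all genes 38.5 and 33.6%), with a median log2 ratio of −0.91. As deposited 69 were lower and 8 higher, and the median of all genes moved by −1.05. Footprints are shorter than the RNA-seq reads and fall in coding sequence, where few windows are unique, and the median member had 88.25 reads per Ribo-seq library against 2212.5 in RNA-seq.

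The largest ratios in either direction were those of members with under 10% unique coding windows, as 56 of the 81 members had. *Rpl13* (chr8:123102350-123105244, plus strand) had 4.02 and 6.70 CPM in Ribo-seq against 155 and 137 in RNA-seq (−4.74, adjusted p = 1.18e-10), *Rpl39* 9.13 and 9.86 against 217 and 207 (−4.45), and *Rps28* 2.01 and 1.49 against 38.8 and 32.3 (−4.17). *Rpl38* (chr11:114668524-114672331, plus strand) had 15.51 and 10.98 against 0.802 and 0.986 (3.54, adjusted p = 1.41e-08), *Rps29* 3.29 and 2.79 against 0.624 and 0.607 (1.92) and *Rps18* 358 and 398 against 103 and 104 (1.86). None of their coding windows of 30 bases was unique except in *Rps18*, with 7.03%. The members with mostly unique sequence sat near 0: *Rpl8* had 1241 and 1294 against 1285 and 1274 (−0.01, adjusted p = 0.885), *Rpl39l* a ratio of −0.17 (adjusted p = 0.184) and *Rps3* −0.34 (adjusted p = 0.00166). The median ratio was −0.09 for the 4 members with at least 80% unique coding windows, −0.57 for 21 with 10 to 80% and −1.24 for 56 with under 10%, and Spearman's correlation over the 81 genes was 0.118. Large-subunit members had a median of −1.22 and small-subunit members −0.11, and whether this difference is one of translation was not tested. Translation factor genes had a median of 0.10 and mitochondrial ribosomal protein genes 0.21.

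**Figure D4:**
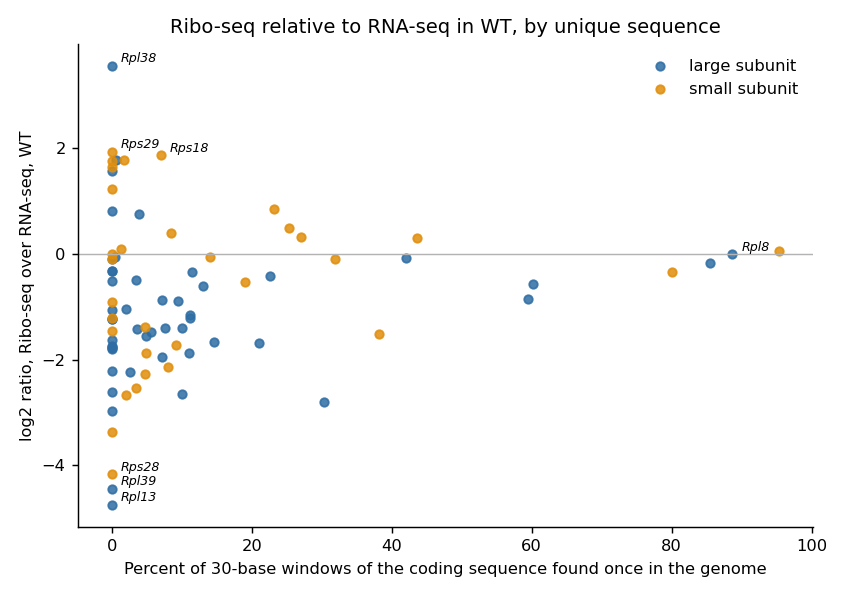
Log2 ratio of Ribo-seq to RNA-seq in *Nrde2* WT against the percent of 30-base coding windows that occur once in the genome; each point is 1 of 81 members. Ratios from −4.74 to 3.54 lie at the left, where few windows are unique, and members at the right lie near 0.

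A change between genotypes within Ribo-seq compares the same countable windows. In *Nrde2*-KO 10 of 81 members rose in Ribo-seq and 11 fell (all 13857 genes, 16.9 and 19.5%), with a median of 0.04. As deposited 13 rose and 1 fell, since the median of all genes then rose by 0.146. The count was 13 without WT replicate 1 and also without *Nrde2*-KO replicate 1, and 10 in DESeq2. Ribosome biogenesis genes, 0 of which rose and 32 fell (median −0.42), and translation factor genes, with 0 and 15 (−0.22), had lower medians than the members, and mitochondrial ribosomal protein genes had 11 higher and 16 lower of 76 (0.03).

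*Rps27l*, the p53-responsive paralog of *Rps27*, rose from 28.2 and 27.6 to 46.6 and 41.8 CPM (0.66, adjusted p = 4.98e-05). *Rpl7a* rose from 47.1 and 48.5 to 65.1 and 65.2 (0.45, adjusted p = 0.000522). The stalk protein *Rplp2* rose from 79.6 and 72.7 to 96.7 and 98.4 (0.36, adjusted p = 0.00219). *Rps21* had 166 and 167 against 133 and 139 (0.29, adjusted p = 0.00487), *Rps26*, near the mRNA exit, 133 and 129 against 106 and 117 (0.23, adjusted p = 0.0279), *Rps16* 6.83 and 7.16 against 4.31 and 4.00 (0.72, adjusted p = 0.0161) and *Rpl12* 10.8 and 9.37 against 6.92 and 7.34 (0.48, adjusted p = 0.0458). *Rps27* had the largest value (1.22, adjusted p = 0.0288), but on 4 to 19 reads per library, and the call was lost in DESeq2. *Rps16* lost its call in DESeq2 too. *Rps26* and *Rpl12* lost theirs in DESeq2 and without a filter on low levels. Without WT replicate 1, *Rps26* had 0.15 and *Rpl12* 0.43.

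Of those that fell, *Rpl8* had 668 and 642 against 887 and 928 CPM (−0.47, adjusted p = 6.62e-05) and *Rpl4* 542 and 548 against 749 and 787 (−0.49, adjusted p = 3.16e-05), in the direction of their RNA. *Rps15* had 177 and 169 against 213 and 221 (−0.33, adjusted p = 0.00177), and *Rps4x* 18.34 and 20.69 against 27.01 and 28.43 (−0.50, adjusted p = 0.00248). The KO libraries lay below WT without overlap for all of these, as they did for 34.2% of all genes. As deposited, none of these 4 was called, with −0.32 for *Rpl8*, −0.34 for *Rpl4*, −0.18 for *Rps15* and −0.35 for *Rps4x*, and *Rps13* was the 1 member that fell. *Rps13* had 10.97 and 10.93 against 26.9 and 14.5 (−0.84, adjusted p = 0.00242), and without WT replicate 1 it had −0.42 and was not called. *Rpl9* (0.48, adjusted p = 0.255), *Rpl10a* (0.18, adjusted p = 0.335) and *Rpl22l1* (−0.50, adjusted p = 0.0587), which moved in RNA-seq, did not pass in Ribo-seq.

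An interaction term tested whether *Nrde2* loss changed Ribo-seq and RNA-seq of the first experiment differently. The Ribo-seq change was higher for 10 of 81 members and lower for 3 (all genes 9.67 and 8.17%), with a median of 0.07, and 10 and 1 without scaling. *Rps26* had 185 and 181 against 148 and 163 CPM in Ribo-seq and 188 and 185 against 237 and 214 in RNA-seq (difference 0.51, adjusted p = 0.00689). *Rplp2* had 135 and 138 against 111 and 101 in Ribo-seq and 150 and 161 against 154 and 171 in RNA-seq (0.43, adjusted p = 0.0191). In *Rps12* Ribo-seq was 5.52 and 6.03 against 7.67 and 8.93 and RNA-seq 29.7 and 30.7 against 23.4 and 23.3 (−0.87, adjusted p = 0.0077). *Rpl35a* had a difference of 0.66 (adjusted p = 0.0128). Values here differ from those of the Ribo-seq fit because the factors were computed over 8 libraries of both kinds. With RNA-seq of the second experiment, 2 members were higher and 6 lower. None of the 10 members higher relative to first-experiment RNA then passed, while *Rplp0*, *Rps12* and *Rps13* did. Without a filter on low levels *Rps12* and *Rps27l* passed, and without RNA-seq WT replicate 1 the count of members passing was 6. Per the methods, the *Nrde2*-KO cells for Ribo-seq were seeded before 4 d of 4OHT had passed and then grown overnight. The labels give 4 d for the KO cells of both assays. The part of any difference in schedule was not tested.

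A run of at least 6 pyrimidines at the start site, in the sense of the sequences above, was present in 33 of the 64 members with a RefSeq start (51.6%) and in 6481 of all 27025 genes (24.0%). For mitochondrial ribosomal protein genes the share was 26.1%, for translation factor genes 27.3% and for ribosome biogenesis genes 18.4%. The run, of C and T in any order, was searched on the strand of the transcript alone. It could lie wholly before the RefSeq start, as in *Rps27l* and *Rpl4*, and would then not be part of an mRNA that begins there. In Ribo-seq of *Nrde2*-KO, 8 of the 32 tested members with a run rose and 1 fell (median 0.17), and of the 29 with a shorter run 1 rose and 4 fell (median −0.08). The 8 that rose were *Rpl12*, *Rpl7a*, *Rplp2*, *Rps2*, *Rps21*, *Rps26*, *Rps27* and *Rps27l*, and the 1 that fell was *Rpl4*. Without a run, *Rps16* rose and *Rplp0*, *Rps4x*, *Rps13* and *Rps15* fell. Relative to RNA, 8 members with a run were higher and 0 lower (median 0.20), and 1 without was higher and 3 lower (median −0.04). These counts depended on the processing. As deposited, 10 members with a run rose in Ribo-seq and 0 fell (median 0.32), and 1 without rose and 1 fell (median 0.07). In DESeq2, 4 of the 32 with a run rose and 1 fell (median 0.18), and 0 without rose and 2 fell (median −0.07). Without a filter on low levels, 4 of 33 with a run rose and 1 fell, and 1 of 31 without rose and 2 fell. Without WT replicate 1 of Ribo-seq the medians were 0.04 with a run and −0.06 without. Relative to second-experiment RNA, 1 with a run was higher and 0 lower (median 0.11), and 1 without was higher and 5 lower (median −0.21), and without a filter 1 with a run was higher and 1 without lower. Among other genes, 17.9% of 2448 with a run rose in Ribo-seq and 20.4% fell (median 0.01), and 17.3% of 7466 without rose and 20.8% fell (median 0.00). Relative to first-experiment RNA, 8.93% of 2373 other genes with a run were higher and 9.19% lower. Of 7271 without, 9.9% were higher and 8.42% lower. Members called without a RefSeq start are in neither count. No test of this split was made, and a RefSeq start may differ from the start used in mESCs.

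**Figure D5:**
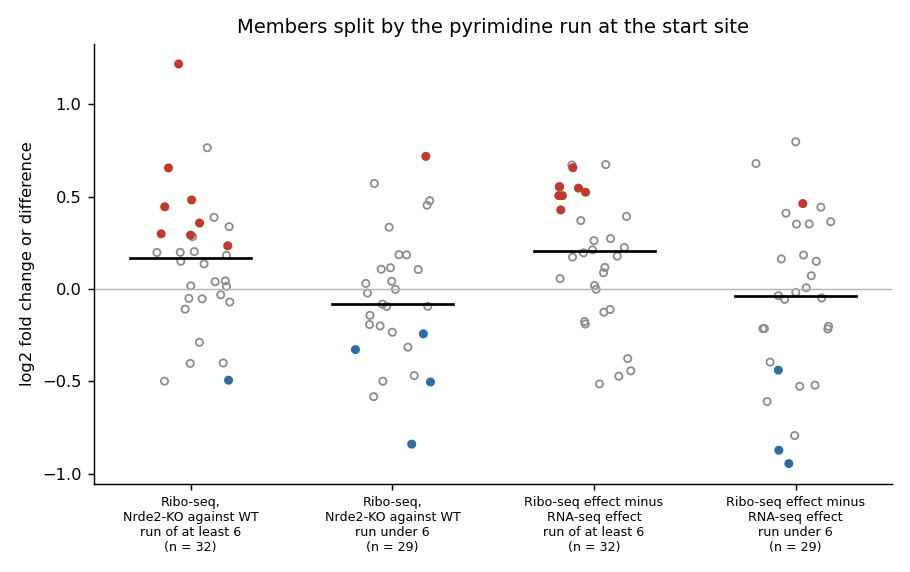
Log2 fold change of members in Ribo-seq of *Nrde2*-KO against WT (left), and the Ribo-seq effect minus the RNA-seq effect (right). Each is split into members with a pyrimidine run of at least 6 bases near the start and members with a shorter run. Filled red and blue points passed as higher and lower, and the bar is the median. In Ribo-seq, of 32 members with a run 8 rose and 1 fell (median 0.17), and of 29 without 1 rose and 4 fell (median −0.08). In DESeq2, 4 of the 32 rose and 1 fell, and 0 of the 29 rose and 2 fell.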

How the data were processed

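Per the submitters' processing notes the tools included bcl2fastq 1.17, STAR 2.7.0a and 2.7.3a, and featureCounts, with build mm10. The authors counted uniquely mapping, strand-correct reads per GENCODE M23 gene and deposited CPM, in Ribo-seq after collapsing duplicate reads. Each CPM value was a whole number of reads divided by a constant of its library (100% of values within 0.1 of a whole read), so reads were recovered from the deposited CPM and tested with edgeR 4.0.16 and DESeq2 1.42.0 as alternatives. Genes were named with a GENCODE annotation of GRCm38 that holds 55154 of the identifiers (181 not).

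CPM were divided by median-of-ratios factors. limma 3.58.1 (R 4.3.3; trend, empirical Bayes) was fitted to log2(CPM + 0.25) of genes whose mean CPM was at least 0.5: 20 RNA-seq libraries without CHX, 8 with CHX, 16 for the response to CHX, 4 of Ribo-seq, and 8 of both kinds. Fits were tested on simulated data. Named genes were the 3 largest rises and falls per comparison among calls without overlap, the paralogs, the NMD-isoform list and the extremes of level and of Ribo-seq ratio; others were chosen after their values were seen, and not all are printed. Members and lists were chosen with earlier results of these data known. BCLIP-seq was not used here. Some genes are not reported here by name.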

Additional observations from a re-analysis of the deposited data

Results flagged for a closer look

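The effect of *Nrde2* loss differed between Ribo-seq and RNA-seq of the first experiment, by the interaction term in limma at an adjusted p below 0.05, for 13 members. Of 81 members tested, 10 were higher and 3 lower, against 9.67 and 8.17% of all genes, so members passed at about the general rate. The difference, Ribo-seq effect minus RNA-seq effect on the log2 scale, was 0.66 for *Rpl35a*, 0.55 for *Rpl14*, 0.55 for *Rpl39l*, 0.55 for *Rps27l*, 0.52 for *Rpl13a*, 0.51 for *Rpl18*, 0.51 for *Rps26*, 0.49 for *Rps14*, 0.46 for *Rpl26* and 0.43 for *Rplp2*. It was −0.44 for *Rplp0*, −0.87 for *Rps12* and −0.94 for *Rps13*. With RNA-seq of the second experiment, none of the 10 higher differences passed the threshold, their values lying between 0.08 for *Rpl39l* and 0.53 for *Rpl35a*, while the 3 lower ones did. Without a filter on low levels *Rps12* and *Rps27l* passed. Groups of 2 libraries are too small for the search for single outlying libraries.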

How the results depend on the processing

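Of the 699 values of named genes under alternatives other than leaving out a library, 44 lost their call and none reversed; of 372 with a library left out, 74 lost it. The cause was not tested.

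Counts of members passing moved as follows. In the first *Nrde2*-KO, 25 became 11 without scaling, 13 without a filter on low levels and 38 with only the compared libraries; in the second, 14 became 9 without scaling, with a median of 0.13 in place of 0.07. *Nrde2-d200* went from 6 to 2, 3 and 16 under the same settings in that order. *Nrde2-D174R* went from 2 to 0 without scaling, 0 without a filter, 4 in DESeq2 and 16 with only the compared libraries. *Ccdc174-dTAG* went from 5 to 2 without scaling, 9 in DESeq2 and 3 with only the compared libraries, and with CHX from 20 to 9 without a filter. Ribo-seq of *Nrde2*-KO went from 21 to 10 without a filter and 10 in DESeq2, with a median of 0.18 in place of 0.04 without scaling. The interaction with RNA-seq went from 13 to 2 without a filter and 8 with second-experiment RNA, its median from 0.07 to 0.18 without scaling and −0.075 with that RNA. The interaction of *Nrde2*-KO with CHX went from 0 to 2 in DESeq2.

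The *Mtrex*-KO median of −0.65 was −1.01 without scaling, −0.63 with 1 added in place of 0.25, −0.63 in edgeR, −0.61 in DESeq2 and −0.73 with only the compared libraries. Without scaling the CHX medians were −0.49, −0.62, −0.47 and −0.52 in *Nrde2* WT, *Nrde2*-KO, *Ccdc174* WT and *Ccdc174-dTAG*; in *Nrde2*-KO it was −0.80 with 1 added and −0.79 in edgeR, and in *Ccdc174-dTAG* −0.73 in edgeR. The Ribo-seq to RNA-seq median of −0.91 was −1.91 without scaling and −1.08 with second-experiment RNA.

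With each library left out in turn, counts ranged from 7 to 15 (first *Nrde2*-KO), 4 to 14 (second), 1 to 4 (*Nrde2-d200*), 0 to 0 (*Nrde2-D174R*), 57 to 64 (*Mtrex*-KO), 2 to 7 (*Ccdc174-dTAG*), 23 to 37 and 6 to 14 (*Nrde2*-KO and *Ccdc174-dTAG* with CHX), 13 to 23 (Ribo-seq), 6 to 16 (its interaction with RNA), and 0 to 1 and 0 to 2 (interactions with CHX). Medians in that order ranged from −0.12 to −0.03, 0.0025 to 0.0894, −0.11 to −0.02, −0.17 to −0.13, −0.74 to −0.59, 0.10 to 0.20, −0.12 to −0.10, 0.08 to 0.12, 0.01 to 0.07, 0.03 to 0.13, −0.13 to −0.08 and −0.06 to 0.00. For CHX in the 4 genotypes they ranged from −0.72 to −0.69, −0.86 to −0.83, −0.76 to −0.71 and −0.81 to −0.74, and for Ribo-seq against RNA-seq from −1.01 to −0.83. A lone library was assumed to vary like the other groups.

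Same-numbered libraries correlated at −0.033 to 0.422 in their deviations, above 0.1 in 11 of 14 comparisons, but the labels do not say that a number marks a shared culture or day and each comparison has 2 numbers, so the pairing is a hint from the data and not of the design. With the replicate number as a block the counts were 27, 14, 7, 2, 61, 6, 37 and 21 in the order of the first 8 above, 80, 79, 76 and 78 for CHX, 23 for Ribo-seq, 68 for Ribo-seq against RNA-seq, 15 for its interaction, and 1 and 0 for the interactions with CHX. Depth limits Ribo-seq most: 10 members had fewer than 20 reads in every Ribo-seq library.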
